A study of Saccharomyces cerevisiae with 4 samples.

Results

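The genes described here are 10 regulators that bring budding yeast (*Saccharomyces cerevisiae*) into meiosis and up to the induction of *NDT80*. They are *IME1*, *IME2*, *IME4*, *NDT80*, *SUM1*, *UME6*, *RIM11*, *RIM15*, *MUM2* and *SLZ1*, and they were picked by name from the 6549 entries of the data. Of these, 9 carried their symbol in the files, and *SLZ1* was found as YNL196C through the RefSeq gene table of assembly R64. Each of the 10 was measured in every library and passed the filter, an average of 10 RPKM or more across the 4 libraries, which 5552 entries passed. RPKM is the read count of an open reading frame (ORF) scaled to its length in kilobases and to how many reads of that library were mapped.

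Ribosome footprints (FP), the mRNA fragments shielded by translating ribosomes, and mRNA were each sequenced from *dbp1Δ::kanMX6* cells and from wild-type cells of the SK1 background. The untagged strains of these genotypes in the methods are *MATa/MATalpha* diploids with *ho::LYS2*, *lys2* and *ura3* markers plus *leu2::hisG*, *his3::hisG* and *trp1::hisG*. A tagged pair that carries *DED1-3V5* and *LEU2* is listed as well, and which pair gave the libraries is not given in the sources used here. In the mutant, both copies of *DBP1*, which encodes an RNA helicase, had been exchanged for the kanMX6 drug-resistance cassette, so the cassette and the loss of the ORF come together in this strain and cannot be told apart. All cells were harvested 4 h after they entered sporulation medium, with 1 min of cycloheximide, a translation inhibitor, before harvest. There was 1 library for each genotype and assay, so no difference below could be set against a spread between replicates, and the genotypes were not tested against each other. Ranges in parentheses are 95% intervals of counting error only, from read numbers inferred from the RPKM values, and such reads, which carry no molecular identifiers, do not each stand for a separate molecule.

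Entry into meiosis in yeast depends on Ime1, a transcription factor made when nutrients run out. Ime1 is recruited by the DNA-binding protein Ume6 to the URS1 elements of early genes, and the kinases Rim11 and Rim15 help to form this activating pair. Among the early targets is *IME2*, which encodes a kinase that drives meiotic replication and the next step, the transcription of *NDT80*. Ndt80 switches on the middle genes of the meiotic divisions and of spore formation by binding elements that the repressor Sum1 otherwise occupies. Ime4, the catalytic subunit of the mRNA m6A methyltransferase, acts in this period with its partners Mum2 and Slz1.

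The libraries held an inferred 3260000 (*dbp1Δ::kanMX6* FP), 4110000 (wild-type FP), 4760000 (*dbp1Δ::kanMX6* mRNA) and 2220000 (wild-type mRNA) reads. The deleted gene was low in the mutant, with 6.9 RPKM of *DBP1* footprints in *dbp1Δ::kanMX6* cells and 435.2 in wild type, and 2.9 against 131.5 RPKM of mRNA. Its neighbor *MRP51*, a mitochondrial ribosomal protein gene, had 5.6 against 47.0 RPKM of footprints and 173.8 against 96.8 RPKM of mRNA. The median entry was itself 1.27-fold higher in the mutant for footprints (0.35 on the log2 scale, 5453 entries) and 1.29-fold higher for mRNA (0.37, 5551 entries), and changes are therefore also given relative to that median. Markers of haploid cells, a check on the diploid state, were mostly low. The 14 listed had median footprints of 12.6 RPKM in *dbp1Δ::kanMX6* cells and 9.25 in wild type, and median mRNA of 25.6 and 16.8 RPKM. They summed to 331.1 against 675.8 RPKM for footprints and 587.1 against 678.8 RPKM for mRNA. *STE18*, the gamma subunit of the pheromone-response G protein, was the highest for footprints, at 149.2 RPKM in *dbp1Δ::kanMX6* cells and 516.9 in wild type. Not all were low in mRNA, with *MFA1* at 148.9 RPKM in *dbp1Δ::kanMX6* cells and 152.2 in wild type. *STE4* mRNA was 75.7 and 72.0 RPKM, where the median entry past the filter had 73.2 and 58.3. The pheromone gene *MF(ALPHA)2* was at 0 in the footprints of both genotypes. *MF(ALPHA)1* was at 0 in the wild-type mRNA but at 14.1 RPKM in the mutant mRNA. Its footprints were 10.3 RPKM in *dbp1Δ::kanMX6* cells and 6.1 in wild type. The part of these markers in the differences below was not tested.

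The regulators spanned a wide range of levels, and their order was nearly the same in both genotypes. *SLZ1*, *IME1* and *IME2* were the most abundant, with *SLZ1* footprints above 99.4% of entries in *dbp1Δ::kanMX6* cells and 99.5% in wild type. *NDT80* came after them, followed for footprints by *MUM2*, *RIM11* and *IME4*. *UME6*, *RIM15* and *SUM1* were the least abundant, and *SUM1* footprints exceeded those of only 4.88% of entries in *dbp1Δ::kanMX6* cells and 10.4% in wild type. The highest footprint level was 682 times the lowest in *dbp1Δ::kanMX6* cells and 616 times in wild type. The spread was narrower for mRNA, 93.1 times in *dbp1Δ::kanMX6* cells and 98.1 times in wild type. Of the 36 neighboring pairs in these 4 orders, 31 were separated by more than their counting error. The 5 that were not were *UME6* and *RIM15* in the mutant footprints, *IME1* and *IME2* in the mutant mRNA, and *RIM11* and *MUM2*, *IME4* and *UME6*, and *RIM15* and *SUM1* in the wild-type mRNA. Together the 10 genes took 1.14% of the inferred footprint reads in *dbp1Δ::kanMX6* cells and 1.24% in wild type, and 1.07% against 1.15% of mRNA reads.

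**Figure D1:**
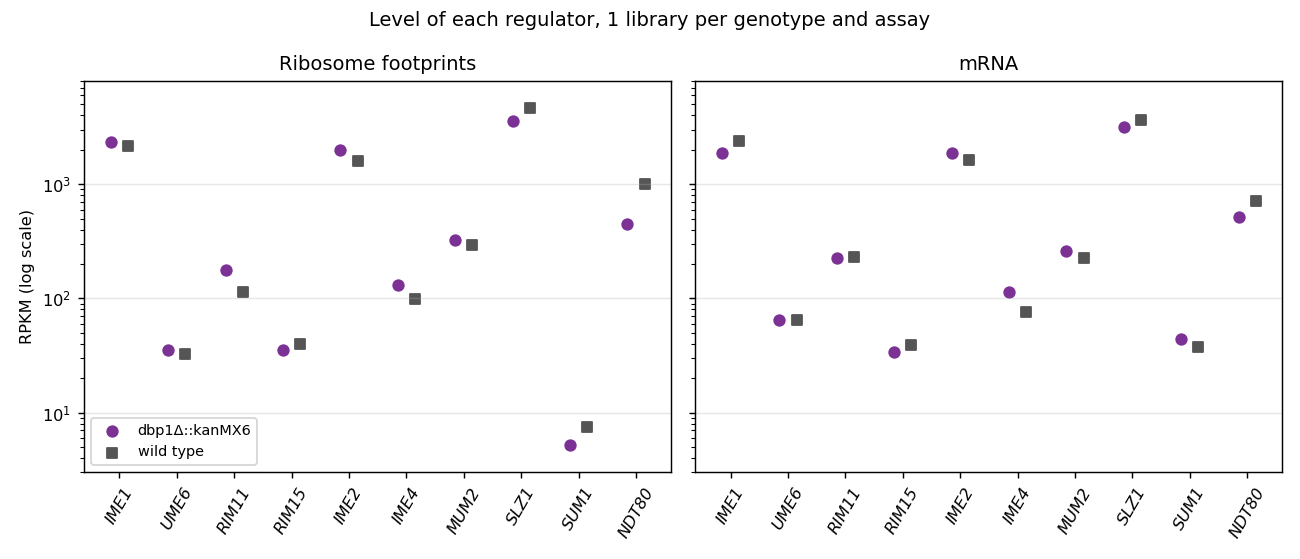
Level of each regulator in RPKM on a log scale, for footprints (left) and mRNA (right), with 1 point per library, purple circles for *dbp1Δ::kanMX6* and gray squares for wild type. *SLZ1* is the highest gene in each library, and *NDT80* footprints lie at 447.0 RPKM in *dbp1Δ::kanMX6* cells and at 1007.6 RPKM in wild type.

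The regulators differed by less than 2-fold between the genotypes in footprints, mRNA and translation efficiency (TE, the footprint RPKM divided by the mRNA RPKM), except for the footprints of *NDT80*. At a difference of at least 2-fold, 1 of the 10 (*NDT80*) had lower footprints in the mutant, where 8.23% of all entries did, and 0 had higher footprints, where 15.1% did. For mRNA 0 of 10 were 2-fold lower and 0 were 2-fold higher, against 4.18% and 16.6% of all entries. For TE the counts were again 0 and 0, against 6.07% of entries lower and 3.43% higher. Relative to the median entry the counts stayed at 1 lower and 0 higher for footprints, against 12.8% and 6.36% of entries. They also stayed at 0 in each direction for mRNA, against 8.43% lower and 7.10% higher, and for TE, against 5.34% lower and 3.91% higher. Counts of 0 and 1 among 10 genes are too small to be read against these shares.

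The median log2 change of the 10 regulators was 0.11 for footprints. Of the 10, 6 were higher and 4 lower in the mutant, where 3746 and 1690 of 5453 entries were. The median change turned to −0.24 relative to the median entry, with 2 genes above that median and 8 below it. For mRNA the median was −0.02, or −0.39 relative to the median entry, where *IME4* alone lay above it and the other 9 lay below. For TE it was −0.02 and turned to 0.05 relative to the median entry. Centring reversed the direction of 4 footprint changes (*IME1*, *IME2*, *UME6* and *MUM2*), of 3 mRNA changes (*IME2*, *SUM1* and *MUM2*) and of 1 TE change (*MUM2*). The counting interval included no change for 1 gene in footprints (*UME6*), for 2 in mRNA (*UME6* and *RIM11*) and for 4 in TE (*IME4*, *UME6*, *RIM15* and *MUM2*). Footprints and mRNA lay on the same side of no change for 6 of the 10. Shares of all entries for these interval and same-side counts are not given here, so the counts do not set the regulators apart. Footprints were higher and mRNA lower for *IME1*, *UME6* and *RIM11*, and the reverse held for *SUM1*.

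**Figure D2:**
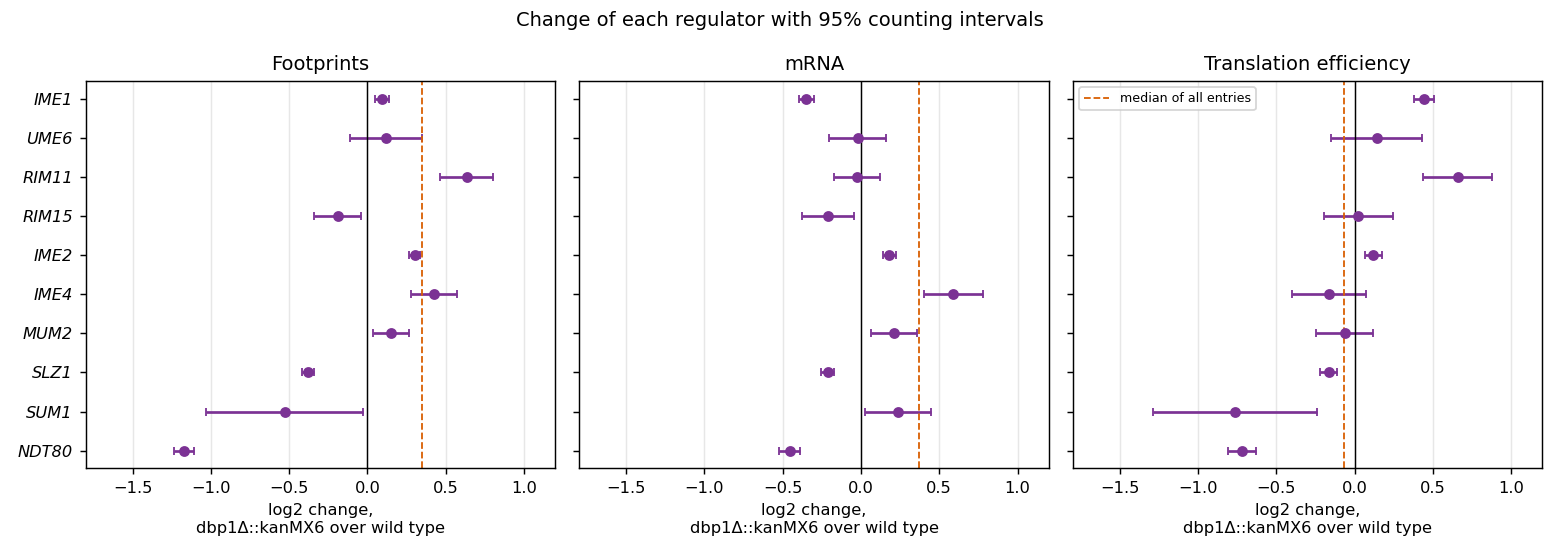
Log2 change of each regulator, *dbp1Δ::kanMX6* over wild type, for footprints, mRNA and TE, with 95% counting intervals as bars and the median of all entries as a dashed line (0.35, 0.37 and −0.07). *NDT80* lies lowest for footprints at −1.17, and the points of *IME1*, *IME2*, *UME6* and *MUM2* for footprints, of *IME2*, *SUM1* and *MUM2* for mRNA and of *MUM2* for TE lie between 0 and the dashed line, so that their direction depends on the reference.

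*IME1* (YJR094C), the transcription factor that starts the program, was among the most abundant entries in both genotypes. Its footprints were 2321.4 RPKM in *dbp1Δ::kanMX6* cells and 2176.1 RPKM in wild type, a ratio of 1.07 (1.04 to 1.10) that turned to a change of −0.25 on the log2 scale relative to the median entry. Its mRNA was 1891.0 RPKM in *dbp1Δ::kanMX6* cells and 2409.1 RPKM in wild type, 1.27-fold lower (1.23 to 1.32), and −0.72 on the log2 scale relative to the median entry. The mutant thus had less *IME1* mRNA by either reference and a footprint level whose direction depended on it. TE was 1.23 in *dbp1Δ::kanMX6* cells and 0.903 in wild type, a ratio of 1.36 (1.30 to 1.42), higher than 83.8% of the TE changes of all entries.

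*UME6* (YDR207C), the DNA-binding partner of Ime1 and a repressor without it, had footprint, mRNA and TE intervals that included no change. Its footprints were 35.5 RPKM in *dbp1Δ::kanMX6* cells and 32.7 RPKM in wild type (ratio 1.09, 0.925 to 1.27, and −0.23 on the log2 scale relative to the median entry). *UME6* mRNA was 64.2 RPKM in *dbp1Δ::kanMX6* cells and 65.2 RPKM in wild type (ratio 0.985, 0.867 to 1.12). Relative to the median entry it was −0.39 on the log2 scale, a ratio of 0.762 (0.671 to 0.865), lower beyond counting error. Its TE was 0.553 against 0.502 in wild type (ratio 1.10, 0.902 to 1.35).

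The kinases that act on Ime1 and Ume6 differed from each other. *RIM11* (YMR139W), a kinase of the GSK3 family that phosphorylates both proteins, had 177.2 RPKM of footprints in *dbp1Δ::kanMX6* cells and 114.2 RPKM in wild type, 1.55-fold higher (1.38 to 1.74) and 0.29 on the log2 scale above the median entry. *RIM11* mRNA was 227.9 RPKM in *dbp1Δ::kanMX6* cells and 231.7 RPKM in wild type (ratio 0.984, 0.889 to 1.09). Relative to the median entry *RIM11* mRNA was lower beyond counting error (ratio 0.761, 0.688 to 0.841). Its TE was accordingly higher in the mutant, 0.778 against 0.493 (ratio 1.58, 1.35 to 1.84), a larger TE increase than in 91.2% of entries and the largest of the 10 regulators. *RIM15* (YFL033C), the kinase that signals nutrient loss, had 35.0 RPKM of footprints in *dbp1Δ::kanMX6* cells and 39.9 RPKM in wild type, 1.14-fold lower (1.03 to 1.27). *RIM15* mRNA was 33.9 against 39.3 RPKM, 1.16-fold lower (1.03 to 1.30), and its TE of 1.03 against 1.02 had a ratio of 1.02 (0.872 to 1.19). Relative to the median entry *RIM15* was lower by more, at −0.54 for footprints and −0.58 for mRNA on the log2 scale.

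*IME2* (YJL106W), the kinase downstream of Ime1, lay slightly below the median entry in footprints. They were 1973.8 RPKM in *dbp1Δ::kanMX6* cells and 1600.4 RPKM in wild type, 1.23-fold higher (1.20 to 1.26). Relative to the median entry this became −0.04 on the log2 scale, a ratio of 0.970 (0.946 to 0.994), lower beyond counting error. *IME2* mRNA was 1864.7 RPKM in *dbp1Δ::kanMX6* cells and 1643.7 RPKM in wild type, 1.13-fold higher (1.10 to 1.17). It became −0.19 relative to the median entry, also lower beyond counting error (ratio 0.878, 0.854 to 0.902). Its TE was 1.06 against 0.974 (ratio 1.09, 1.05 to 1.13). Set against its activator within each library, *IME2* mRNA was 0.986 of *IME1* mRNA in *dbp1Δ::kanMX6* cells and 0.682 of it in wild type, a ratio of 1.45 (1.38 to 1.51). For footprints the same quotient was 0.850 in *dbp1Δ::kanMX6* cells and 0.735 in wild type (ratio 1.16, 1.11 to 1.20). These quotients within a library do not depend on how the libraries are scaled.

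The subunits of the m6A methyltransferase differed from each other. *IME4* (YGL192W), the catalytic subunit, had 131.8 RPKM of footprints in *dbp1Δ::kanMX6* cells and 98.2 RPKM in wild type, 1.34-fold higher (1.21 to 1.49), with an interval that included the median entry. *IME4* mRNA was 114.5 RPKM in *dbp1Δ::kanMX6* cells and 76.2 RPKM in wild type, 1.50-fold higher (1.32 to 1.71), and 0.22 on the log2 scale above the median entry. The antisense RNA *RME2* spans the *IME4* ORF. The authors place its repression of *IME4* in haploid cells, and the strains listed for these genotypes are *MATa/MATalpha* diploids. The treatment of strand in the counting is not given in the sources used here. Any antisense reads therefore cannot be told apart from sense reads in these mRNA values. *IME4* TE was 1.15 against 1.29 (ratio 0.893, 0.758 to 1.05) and rests on the same mRNA values.

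*MUM2* (YBR057C), a partner of Ime4, had 322.5 RPKM of footprints in *dbp1Δ::kanMX6* cells and 290.9 RPKM in wild type, a ratio of 1.11 (1.02 to 1.20) that turned to −0.20 on the log2 scale relative to the median entry. *MUM2* mRNA was 260.3 against 224.8 RPKM, a ratio of 1.16 (1.05 to 1.28) that turned to −0.16. Its TE was 1.24 against 1.29 (ratio 0.957, 0.844 to 1.09), −0.06 on the log2 scale and 0.01 relative to the median entry. *SLZ1* (YNL196C), the meiosis-induced subunit, was the most abundant regulator in each library and was lower in the mutant by either reference. Its footprints were 3548.9 RPKM in *dbp1Δ::kanMX6* cells and 4616.3 RPKM in wild type, 1.30-fold lower (1.27 to 1.33), or −0.73 on the log2 scale relative to the median entry. *SLZ1* mRNA was 3155.1 RPKM in *dbp1Δ::kanMX6* cells and 3658.1 RPKM in wild type, 1.16-fold lower (1.13 to 1.19), or −0.58 relative to the median entry. Its TE was 1.12 against 1.26, 1.12-fold lower (1.08 to 1.16).

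Quotients between *SLZ1*, *IME4* and *MUM2* differed between the libraries, in footprints and in mRNA. The mRNA quotients with *IME4* rest on the mRNA values in which any *RME2* reads cannot be told apart. *SLZ1* footprints were 26.9 times those of *IME4* in *dbp1Δ::kanMX6* cells and 47.0 times in wild type, 1.75-fold lower (1.57 to 1.94). The mRNA quotient was lower by nearly the same factor, 27.6 in *dbp1Δ::kanMX6* cells and 48.0 in wild type (1.74-fold, 1.53 to 1.99). *SLZ1* over *MUM2* was 11 against 15.9 for footprints, 1.44-fold lower (1.33 to 1.57), and 12.1 against 16.3 for mRNA, 1.34-fold lower (1.21 to 1.49). *IME4* over *MUM2* was higher in the mutant, 0.409 against 0.338 for footprints (ratio 1.21, 1.06 to 1.38) and 0.440 against 0.339 for mRNA (ratio 1.30, 1.10 to 1.53).

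*SUM1* (YDR310C), the repressor of the middle genes, was weakly translated in both genotypes. It had 5.2 RPKM of footprints in *dbp1Δ::kanMX6* cells and 7.5 RPKM in wild type, an inferred 54 and 98 reads, 1.44-fold lower (1.02 to 2.04) and −0.88 on the log2 scale relative to the median entry. Its mRNA was 43.9 RPKM in *dbp1Δ::kanMX6* cells and 37.3 RPKM in wild type, 1.18-fold higher (1.02 to 1.36), but −0.14 relative to the median entry, with an interval that included that median. *SUM1* TE was the lowest of the 10 regulators, 0.118 in *dbp1Δ::kanMX6* cells and 0.201 in wild type, above that of only 5.67% and 7.75% of entries in the same order of genotypes. The mutant value was 1.70-fold lower (1.18 to 2.44).

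*NDT80* (YHR124W), the transcription factor that turns on the middle genes, had the largest footprint and mRNA decreases of the 10 regulators. Its footprints were 447.0 RPKM in *dbp1Δ::kanMX6* cells and 1007.6 RPKM in wild type, an inferred 2746 and 7809 reads. They were 2.25-fold lower in the mutant (2.16 to 2.35), and 6.46% of entries had a lower footprint change. Its mRNA was 515.0 RPKM in *dbp1Δ::kanMX6* cells and 705.6 RPKM in wild type, 1.37-fold lower (1.31 to 1.44), and 12.1% of entries had a lower mRNA change. Relative to the median entry both were lower by more, at −1.52 for footprints and −0.82 for mRNA on the log2 scale. Footprints were thus lower by a larger factor than mRNA, and the TE of *NDT80* was 0.868 in *dbp1Δ::kanMX6* cells against 1.43 in wild type, 1.65-fold lower (1.54 to 1.75). That TE exceeded 63.1% of entries in the mutant and 86.3% in wild type. These are bulk samples, in which fewer cells that express *NDT80* and less *NDT80* RNA in each cell cannot be told apart.

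**Figure D3:**
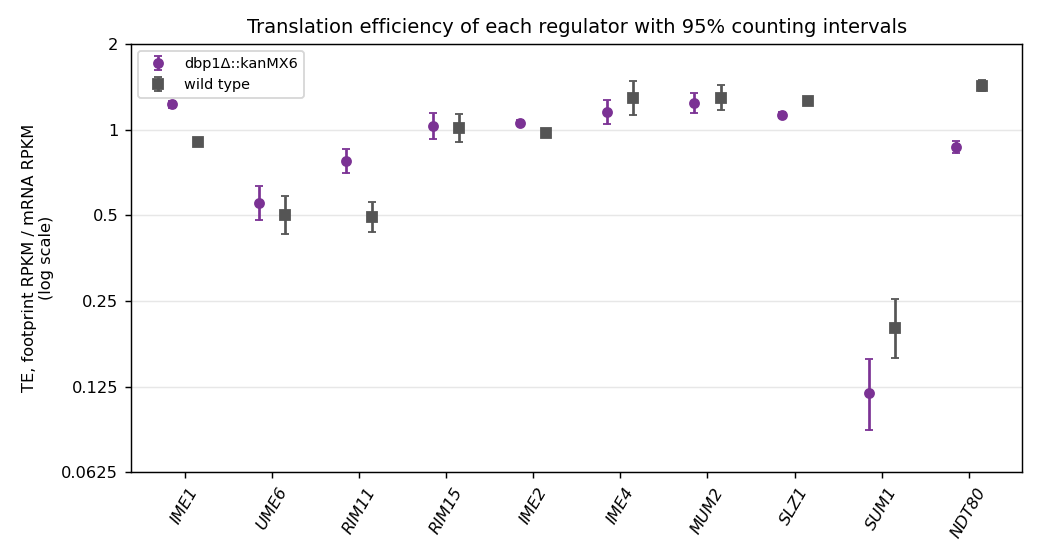
TE of each regulator on a log scale, purple circles for *dbp1Δ::kanMX6* and gray squares for wild type, 1 value per genotype, with 95% counting intervals as bars. *NDT80* (0.868 in *dbp1Δ::kanMX6* cells and 1.43 in wild type) and *SUM1* (0.118 and 0.201) are lower in the mutant, and *IME1* (1.23 and 0.903) and *RIM11* (0.778 and 0.493) are higher.

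Set against *IME2*, *IME1* and *SUM1* within each library, *NDT80* was lower in the mutant in both measures. *NDT80* footprints were 0.226 of *IME2* footprints in *dbp1Δ::kanMX6* cells and 0.630 in wild type, 2.78-fold lower (2.64 to 2.92), and for mRNA the quotients were 0.276 and 0.429, 1.55-fold lower (1.47 to 1.64). Against *IME1* the footprint quotient was 0.193 in *dbp1Δ::kanMX6* cells and 0.463 in wild type, 2.40-fold lower (2.28 to 2.53). The corresponding mRNA quotient was 0.272 against 0.293, 1.08-fold lower (1.02 to 1.14), and *IME1* mRNA was itself lower in the mutant. Against the repressor *SUM1*, *NDT80* footprints were 85.96 times as high in *dbp1Δ::kanMX6* cells and 134.3 times in wild type, 1.56-fold lower (1.12 to 2.18). For mRNA they were 11.7 and 18.9 times, 1.61-fold lower (1.39 to 1.87). *IME1* over *UME6* had no detectable difference in footprints, 65.4 against 66.5 (ratio 0.983, 0.838 to 1.15), and was 29.5 against 36.9 in mRNA, 1.25-fold lower (1.10 to 1.43).

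The genes that these regulators control were described from lists of known targets, which were chosen with earlier results of these data known. The 18 early meiotic genes with URS1 elements, targets of Ime1 and Ume6, had a median footprint level of 515.1 RPKM in *dbp1Δ::kanMX6* cells and 397.9 RPKM in wild type. All 18 were above no change for footprints and for mRNA, where 3746 of 5453 and 3956 of 5551 of all entries were. Their median log2 changes were 0.51 and 0.74, but only 14 and 16 of them were above the median entry, and the others turned below it. At 2-fold, 2 of the 18 were higher in footprints and 3 in mRNA, near the 15.1% and 16.6% of all entries that were, and relative to the median entry the count was 0 in both, against 6.36% and 7.10% of entries. *MEI4* and *REC104*, both needed for meiotic double-strand breaks, were the largest footprint increases. *MEI4* had 168.5 RPKM of footprints in *dbp1Δ::kanMX6* cells and 83.1 in wild type (ratio 2.03, 1.80 to 2.28) and 198.1 against 96.2 RPKM of mRNA. *REC104* had 140.4 against 70.2 RPKM of footprints (ratio 2.0, 1.63 to 2.45) and 279.9 against 110.7 RPKM of mRNA (ratio 2.53, 2.10 to 3.06). The median TE change of the early genes was −0.09.

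The 22 middle genes, targets of Ndt80, lay on the other side. Their median footprint level was 203.2 RPKM in *dbp1Δ::kanMX6* cells and 506.0 RPKM in wild type. All 22 had lower footprints, as did 1690 of 5453 among all entries. Of the 22, 17 were lower by at least 2-fold, against 8.23% of all entries. Relative to the median entry 20 were lower by that margin, against 12.8%. For mRNA 20 of the 22 were lower, against 1585 of 5551 entries, and 12 were lower by at least 2-fold, against 4.18% of all entries. All 22 lay below the median entry, 15 by at least 2-fold, against 8.43%. The medians were −1.38 for footprints, −1.07 for mRNA and −0.75 for TE, and 7 had a TE at least 2-fold lower, against 6.07% of all entries. TE was higher in the mutant for 3 of the 22, among them *SPS4*, with footprints 1.89-fold lower and mRNA 2.86-fold lower. The decrease of *NDT80* was smaller than that of most of its targets, since 14 of the 22 had a larger footprint decrease, 18 a larger mRNA decrease and 12 a larger TE decrease. *SPO20*, a SNARE of the forming spore membrane, had 7.7 RPKM of footprints (an inferred 30 reads) in *dbp1Δ::kanMX6* cells and 357.0 in wild type, against 224.3 and 823.9 RPKM of mRNA. *CLB3*, a B-type cyclin of the second division, had 3.1 RPKM of footprints (13 reads) in *dbp1Δ::kanMX6* cells and 112.7 in wild type, against 145.7 and 346.0 RPKM of mRNA.

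The middle genes with the largest footprint decreases were lower in both measures, and by a larger factor in footprints. *SPS1*, a kinase needed to enclose the spores, had 14.1 RPKM of footprints in *dbp1Δ::kanMX6* cells and 457.7 in wild type, 389.2 against 1451.8 RPKM of mRNA, and a TE of 0.0362 against 0.315. *SSP2*, which acts in spore wall formation, had 36.4 against 311.3 RPKM of footprints and 505.3 against 1860.7 RPKM of mRNA. In all, 5 of the 22 had at least 8-fold lower footprints, and the share of all entries at 8-fold was not counted. At the other end *CDC5*, the polo kinase that drives exit from pachytene, had 390.5 RPKM of footprints in *dbp1Δ::kanMX6* cells and 440.6 in wild type (1.13-fold lower, 1.07 to 1.19). Its mRNA was 555.8 against 477.5 RPKM (ratio 1.16, 1.11 to 1.22), which turned to −0.15 on the log2 scale relative to the median entry. *SPO77*, which acts with *SPS1*, had 73.9 against 123.4 RPKM of footprints (1.67-fold lower, 1.47 to 1.90) and 158.9 against 151.3 RPKM of mRNA (ratio 1.05, 0.942 to 1.17), its mRNA change turning to −0.30 relative to the median entry.

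**Figure D4:**
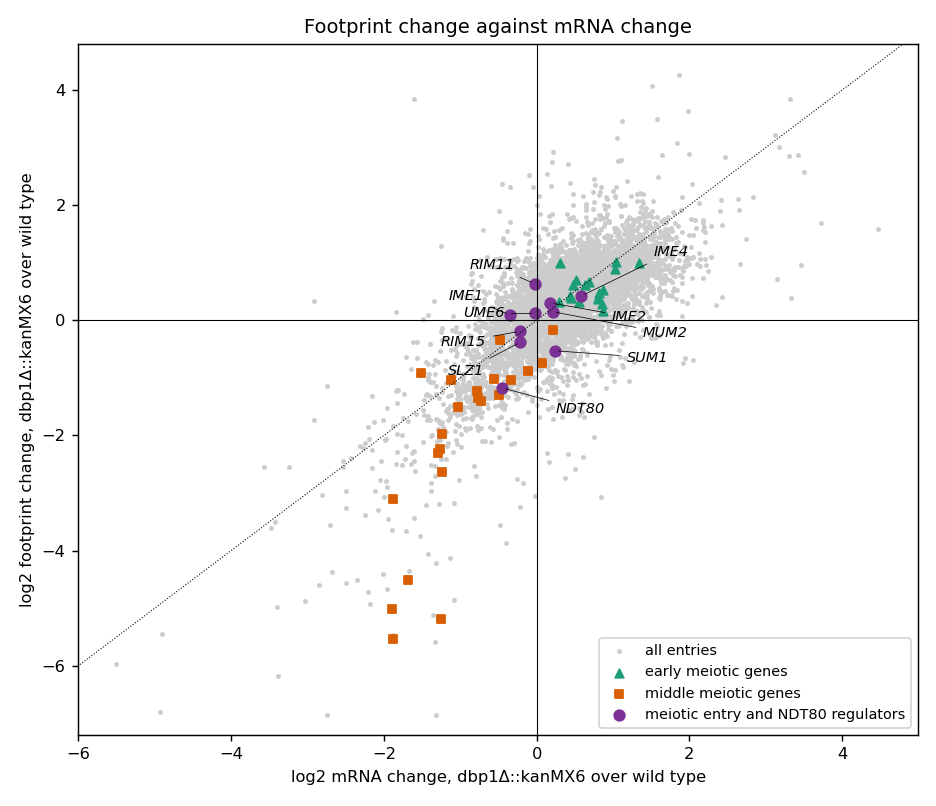
Log2 footprint change against log2 mRNA change, *dbp1Δ::kanMX6* over wild type, for all entries (gray), the 18 early genes (triangles), the 22 middle genes (squares) and the 10 regulators (circles), with a dotted line where both changes are equal. *NDT80* (−0.45 for mRNA, −1.17 for footprints) lies below the dotted line near the middle genes, whose footprint changes are all below 0, whereas the early genes are all above 0 in both measures, 4 of them turning below the median entry in footprints and 2 in mRNA.

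Upstream of *IME1*, 12 of the 13 listed regulators of its transcription passed the filter. Their median log2 change was 0.31 for footprints, which turned to −0.04 relative to the median entry, and 0.12 for mRNA, which turned to −0.25, with 1 gene at least 2-fold higher in each, where 15.1% and 16.6% of all entries were, and 0 lower, where 8.23% and 4.18% were. That gene was *MSN4*, a stress-responsive activator of *IME1*, with 126.0 RPKM of footprints in *dbp1Δ::kanMX6* cells and 47.4 in wild type (ratio 2.66, 2.35 to 3.02) and 175.5 against 52.6 RPKM of mRNA (ratio 3.34, 2.90 to 3.86). *SNF1*, the kinase that releases genes from glucose repression, had 80.8 against 50.4 RPKM of footprints (ratio 1.60, 1.40 to 1.83) and 59.8 against 47.9 RPKM of mRNA. The repressor *SOK2* had 35.0 RPKM of mRNA in *dbp1Δ::kanMX6* cells and 44.0 in wild type (1.26-fold lower, 1.06 to 1.48). *RIM8*, *RIM13* and *RIM20*, of the pathway that relays alkaline pH to *IME1*, had footprint and mRNA intervals that included no change. Relative to the median entry, their mRNA and the footprints of *RIM8* and *RIM13* were lower beyond counting error. Of the same pathway, *RIM21* had 15.8 against 10.1 RPKM of footprints (ratio 1.56, 1.12 to 2.19) and 70.7 against 51.3 RPKM of mRNA (ratio 1.38, 1.16 to 1.63). Both *RIM21* ratios were within counting error of the median entry. *RIM101*, its transcription factor, had 203.9 against 184.7 RPKM of footprints (ratio 1.10, 1.02 to 1.19), which turned to −0.20 on the log2 scale relative to the median entry. *YHP1*, a repressor of *IME1* that missed the filter, had 8.4 against 2.5 RPKM of mRNA, the wild-type value being an inferred 6 reads.

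Of the 11 genes of the Ras/PKA, Sch9 and Pho85 kinases and the Rim15 targets, which act on or through Rim15, 2 had at least 2-fold higher footprints and 1 had 2-fold higher mRNA, where 15.1% and 16.6% of all entries did, so these counts do not set the list apart. Relative to the median entry, 1 of the 11 had at least 2-fold higher footprints and 2 had 2-fold lower, where 6.36% and 12.8% of all entries did. Their median change was −0.07 for footprints on the log2 scale, or −0.41 relative to the median entry. For mRNA the median was 0.01, which turned to −0.36 relative to the median entry. *TPK3*, a catalytic subunit of PKA, had 19.4 RPKM of footprints in *dbp1Δ::kanMX6* cells and 6.9 in wild type (ratio 2.81, 1.86 to 4.36), and 41.6 against 13.1 RPKM of mRNA (ratio 3.18, 2.21 to 4.64). *PHO85*, a cyclin-dependent kinase, had 86.7 against 38.8 RPKM of footprints (ratio 2.23, 1.83 to 2.72) and 116.3 against 66.1 RPKM of mRNA. Lower in the mutant were *RAS2*, a GTPase that activates adenylate cyclase, with 28.7 against 47.5 RPKM of footprints, and *CYR1*, adenylate cyclase itself, with 21.6 against 31.2 RPKM. *PHO80*, a cyclin partner of Pho85, had 4.2 against 7.1 RPKM of footprints, a difference within counting error of no change. Relative to the median entry *PHO80* footprints were lower beyond counting error (ratio 0.465, 0.210 to 0.940).

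The corepressors through which Ume6 and Sum1 act differed among themselves. Of 6 genes, 4 were below no change for footprints and 4 for mRNA, where 1690 of 5453 and 1585 of 5551 of all entries were. Their medians were −0.36 and −0.16. *HST1*, the deacetylase that Sum1 recruits, had 57.7 RPKM of footprints in *dbp1Δ::kanMX6* cells and 138.4 in wild type, 2.40-fold lower (2.10 to 2.76), with 305.4 against 348.1 RPKM of mRNA and a TE of 0.189 against 0.398. *RFM1*, which links Hst1 to Sum1, had 72.7 against 84.9 RPKM of footprints, within counting error of no change. Relative to the median entry *RFM1* footprints were lower beyond counting error (ratio 0.673, 0.564 to 0.800). Among the partners of Ume6, *SIN3* footprints were 67.4 against 94.5 RPKM (1.40-fold lower, 1.30 to 1.52) and *ISW2* footprints were 49.7 against 87.2 RPKM (1.75-fold lower, 1.58 to 1.94). *RPD3*, the deacetylase bound to Sin3, had 66.1 against 52.2 RPKM of footprints (ratio 1.27, 1.07 to 1.50). That ratio was above no change beyond counting error but within counting error of the median entry. *UME1*, another subunit of that complex, had 44.4 against 18.2 RPKM of mRNA (ratio 2.44, 1.82 to 3.30) and 29.1 against 19.2 RPKM of footprints.

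The 3 other GSK3 kinases differed among themselves, with a median footprint change of 0.51 and a median mRNA change of 0.10 that turned to −0.28 relative to the median entry. *MCK1*, which also promotes *IME1* expression, resembled *RIM11*. It had 199.2 RPKM of footprints in *dbp1Δ::kanMX6* cells and 112.2 in wild type (ratio 1.78, 1.58 to 1.99), 174.0 against 162.9 RPKM of mRNA, and a TE of 1.14 against 0.689. *MRK1* went the other way, with 93.4 against 188.8 RPKM of footprints (2.02-fold lower, 1.83 to 2.23) and a TE of 0.620 against 1.03. *YGK3* had 37.4 against 26.2 RPKM of footprints (ratio 1.43, 1.11 to 1.84) and 67.8 against 49.0 RPKM of mRNA (ratio 1.38, 1.12 to 1.71). Both ratios were above no change beyond counting error but within counting error of the median entry.

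The other m6A proteins differed among themselves, and each of the 4 was within 2-fold of wild type in footprints, mRNA and TE. The median change was 0.14 for footprints and 0.23 for mRNA, and these turned to −0.20 and −0.14 relative to the median entry. *KAR4* had 261.1 RPKM of footprints in *dbp1Δ::kanMX6* cells and 245.3 in wild type, *VIR1* had 84.5 against 56.4 RPKM (ratio 1.50, 1.35 to 1.67) and *DYN2* had 195.5 against 238.8 RPKM (1.22-fold lower, 1.05 to 1.42). *PHO92*, the m6A reader, was the most abundant, with 669.9 against 585.1 RPKM of footprints and 863.6 against 739.3 RPKM of mRNA. Among 3 genes whose products act with Ime2, *IDS2* had 89.4 against 174.6 RPKM of footprints (1.95-fold lower, 1.74 to 2.20) and 96.2 against 156.1 RPKM of mRNA. *CAK1*, the kinase that activates Ime2, had 75.6 against 131.7 RPKM of footprints (1.74-fold lower, 1.51 to 2.02) and 77.6 against 115.3 RPKM of mRNA. *SIC1*, an inhibitor removed in an Ime2-dependent way, had 41.4 against 23.8 RPKM of footprints (ratio 1.74, 1.29 to 2.32). The medians of these 3 were −0.80 for footprints and −0.57 for mRNA.

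**Figure D5:**
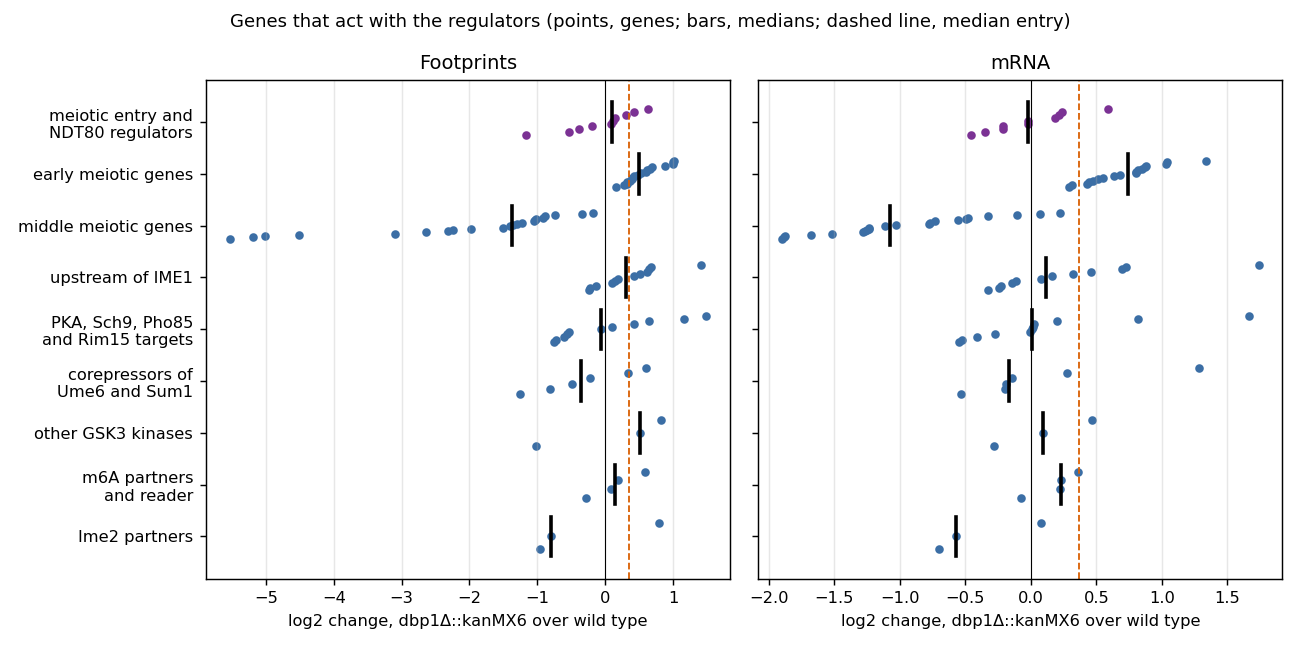
Log2 change of footprints (left) and mRNA (right), *dbp1Δ::kanMX6* over wild type, for the 10 regulators and 8 lists of genes that act with them, with 1 point per gene, bars at list medians, a solid line at no change and a dashed line at the median entry. The 22 middle genes extend furthest to the left, with a median footprint change of −1.38, and the medians of the regulators (0.11), the genes upstream of *IME1* (0.31) and the m6A partners (0.14) lie between the solid and dashed lines for footprints, so that their direction depends on the reference.

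The entries nearest to 3 of the regulators were found by the Euclidean distance of log2 RPKM over the 4 libraries, among 5777 entries above 0 in each. For *NDT80* they were YPR027C (0.21), *SPG1* (0.36) and YDL186W (0.37). YPR027C had 481.0 RPKM of footprints in *dbp1Δ::kanMX6* cells and 893.2 in wild type, and 532.6 against 708.8 RPKM of mRNA. For *IME1* they were the transcriptional coactivator gene *MBF1* (0.54), the meiotic recombinase gene *DMC1* (0.55) and an entry naming both YBR089C-A and YBR090C (0.57). *DMC1*, an early gene itself, had higher mRNA in the mutant, 2487.0 against 2037.6 RPKM, unlike *IME1*. For *IME2* they were YPR010C-A (0.18), *ATP15* of the mitochondrial ATP synthase (0.50) and the chaperone gene *SSA3* (0.50). The distance combines the level of an entry with its differences between libraries.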

How the data were processed

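Footprint and mRNA libraries from *dbp1Δ::kanMX6* and wild-type SK1 cells were deposited as RPKM, 1 library per genotype and assay, grouped by their titles. To obtain RPKM, the authors aligned the reads of a library against the SK1 genome, tallied them for each ORF, and scaled the tallies to ORF length in kilobases and to the library's mapped reads. The submitters' processing notes name CASAVA, bcl2fastq 2.17 and Bowtie2. The annotation, strand treatment and handling of multiple matches are not given in the sources used here.

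Reads were inferred as the depth that brought values under 20 RPKM of ORFs under 500 bp (RefSeq R64 lengths, 5771 entries matched) closest to whole reads. Within 0.02 reads plus the rounding of 1 decimal place, 71.8% to 74.5% of 131 to 163 such values per library were whole, so reads are approximate. The share that would be whole at an arbitrary depth was not computed. Ratios are *dbp1Δ::kanMX6* over wild type, with a pseudocount of 0 and a filter at a mean of 10 RPKM. FP and mRNA intervals are exact conditional (Clopper-Pearson) intervals, and those of TE and of quotients between genes use the delta method. The code was tested on simulated data. Alternatives were a pseudocount of 1, no filter or a filter at 50 RPKM, centring on the median entry, trimmed-mean scaling (30% of log ratios, 5% of levels) and a 1.5-fold threshold.

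The regulators and the 9 gene lists (94 genes) were chosen with earlier results of these data known, and the quotients between genes after their values were seen. Genes named are the regulators, *DBP1*, *MRP51*, members of lists of up to 6 genes, the 3 nearest entries and, per list, the largest changes in each direction with at least 20 inferred reads in 1 library. *RIM21*, *RIM101*, *MF(ALPHA)1*, *MF(ALPHA)2*, *MFA1*, *STE4* and *SPS4* fall outside this rule and were named after their values were seen. Names missing from the files (*SLZ1*, *PHO92*, *VIR1*) were matched by locus tag. Promoter motifs were not analysed here. Python 3.11.15, pandas 2.3.3, numpy 2.4.6, scipy 1.17.1 and matplotlib 3.10.9 were used.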

Additional observations from a re-analysis of the deposited data

How the results depend on the processing

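Scaling had the most effect. Under centring on the median entry, and likewise under trimmed-mean scaling, the median log2 change of the regulators was −0.24 for footprints (0.11 as deposited) and −0.39 for mRNA (−0.02 as deposited), and 4 footprint and 3 mRNA changes among the 10 turned direction. With a threshold of 1.5-fold, 2 regulators differed in footprints, 1 in mRNA and 3 in TE, against 1, 0 and 0 at 2-fold. The share of all entries at 1.5-fold was not counted, so these counts cannot be set against it. A filter at a mean of 50 RPKM left 725 of 3046 entries at least 2-fold different in footprints (23.8%, against 23.3% at a mean of 10 RPKM), 553 of 3068 in mRNA (18.0%, against 20.8%) and 247 of 3046 in TE (8.11%, against 9.50%), down from 1271, 1154 and 518 entries. A pseudocount of 1 RPKM moved 0 of the 10 changes in each measure by more than their interval. No paired analysis was possible because there is 1 library per group. Depth limits *SUM1* most, with 54 and 98 inferred footprint reads in *dbp1Δ::kanMX6* and wild-type cells.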
